A study of Mus musculus with 9 samples.

Results

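The last step of an in vitro maturation course of mouse megakaryocytes, from the stage named MK4 to the stage named MK6, was examined on 5 of the 9 arrays of the study: 2 of MK4 and 3 of MK6. Arrays were placed in their stage by their titles. The other 4 arrays, 2 of the progenitor stage MKP and 2 of the stage MK3, entered the estimate of the spread and the comparison with the step before. All stages came from bone marrow or fetal liver preparations of mice, grown with thrombopoietin, the cytokine of megakaryocyte growth; the labels do not say which tissue gave which array and name no strain, genotype or age. Suspensions were taken on days 3, 4 and 6, the numbers the stage names carry, and the cells were sorted by surface CD41, an integrin subunit of the lineage, and by forward scatter, which follows cell size. MK4 and MK6 are therefore sorted gates of mixed cultures and not cells followed in time. By these numbers they also differ in culture day, and day and gate cannot be told apart. Whether a stage's arrays stem from different cultures is not in the labels; the p-values therefore measure nothing but the spread among these samples, and that spread may be technical.

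Megakaryocytes are the marrow cells that release platelets. They leave the division cycle while still copying their DNA, build an internal membrane system, fill alpha and dense granules with proteins and small molecules, and finally extend long microtubule-driven processes, the proplatelets, from which platelets are shed. Platelet receptors such as the fibrinogen receptor, made of the integrin subunits encoded by Itga2b (CD41) and Itgb3, and the glycoprotein Ib-IX-V complex are placed on the surface during this course.

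The 3 MK6 arrays differed from the MK4 arrays in RNA quality and from each other in their distance from MK4. The 3'/5' ratio of the beta-actin control probe sets, which is larger in fragmented RNA, was 1.49, 1.33 and 3.21 on MK6 replicates 1, 2 and 3 and between 0.957 and 1.09 on the 6 arrays of the earlier stages. The corresponding Gapdh ratio was 3.27 on MK6 replicate 3 and at most 1.13 on all others. Trimmed mean signals before scaling were 200 and 195 on the MK4 arrays and 102, 183 and 102 on the MK6 arrays. Across the 9392 genes tested, which are not independent replicates, MK6 replicate 2 was nearest to the MK4 arrays, with Pearson's r of 0.940 and 0.943. MK6 replicate 1 had 0.820 and 0.830. The MK4 arrays had an r of 0.943 with each other. MK6 replicate 2 had only 0.834 and 0.926 with MK6 replicates 1 and 3, which had 0.871 with each other. By this measure MK6 replicate 2 was thus nearer to MK4 than to its own stage. With the beta-actin ratio added as a covariate, the genes at unadjusted p below 0.05 between MK4 and MK6 went from 995 to 264 (limma). The MK6 arrays hold the 3 highest ratios, so stage and RNA quality cannot be told apart in these samples. The part of signal level in any difference was not tested. Of the 9 defining megakaryocyte markers tested, 3 were lower and 2 higher on all MK6 arrays than on both MK4 arrays. Of all genes, 9.84% were lower and 14.9% higher in this way. The median difference of these markers from MK4 was −0.45 on the log2 scale, and −0.54, −0.10 and −0.76 on MK6 replicates 1, 2 and 3. Itga2b, the gene of the sorting antigen, had signals of 3422 and 2530.0 on the MK4 arrays and 3397, 3679 and 2856 on the MK6 arrays, and the stages overlapped.

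**Figure D1:**
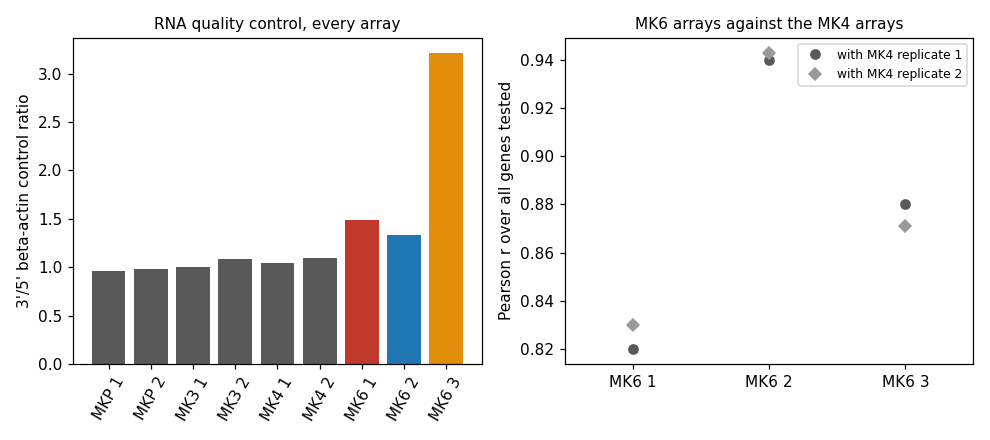
Left, 3'/5' ratio of the beta-actin control signal on each of the 9 arrays (bars from 0). Right, Pearson's r across the 9392 genes tested between each MK6 array and each MK4 array (points). The MK6 arrays have the 3 highest ratios, up to 3.21, and MK6 replicate 2 has the highest correlations with MK4.

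At an adjusted p below 0.05, 1 gene rose from MK4 to MK6, Nqo1, and 1 gene fell, Map11, each 0.0106% of the 9392 genes tested (limma, Benjamini-Hochberg over all of them). At an unadjusted p below 0.05 there were 466 genes higher (4.96%) and 529 lower (5.63%) in MK6. The signals of all 3 MK6 arrays lay above both MK4 arrays for 1400 genes (14.9%) and below both for 924 (9.84%). With so few arrays, separation of this kind is also frequent for genes that do not differ between stages, so it is not a test. These shares are the background against which the counts within gene groups are to be read, and groups are described by counts and medians only. The median difference over all genes, MK6 minus MK4 on the log2(signal + 15.3) scale, was 0.09, and the median standard error was 0.31. Differences below are on this scale, with ± standing for the standard error of the fit. Leaving out 1 array moved the 995 genes at unadjusted p below 0.05 to 568 without MK4 replicate 1, 662 without MK4 replicate 2, 607 without MK6 replicate 3 and 1833 without MK6 replicate 2. In these bulk samples fewer cells of a type and less RNA per cell cannot be told apart.

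**Figure D2:**
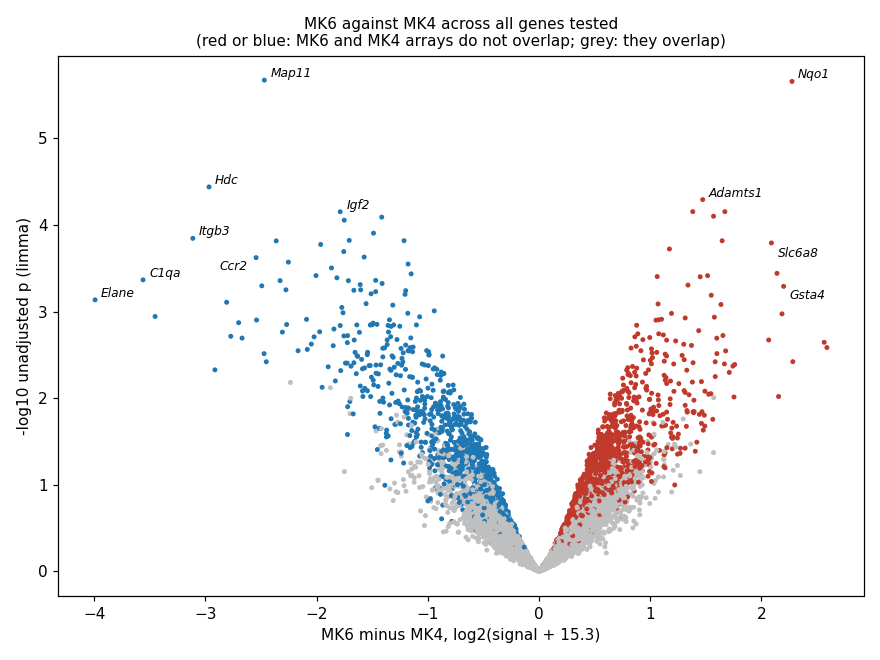
MK6 minus MK4 difference on the log2(signal + 15.3) scale (horizontal) against −log10 of the unadjusted p (vertical) for the 9392 genes tested; colour marks genes whose MK6 arrays lay all above (red) or all below (blue) both MK4 arrays. Nqo1 at 2.27 and Map11 at −2.47 stand highest on their sides and are the only genes past the adjusted threshold.

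Nqo1 encodes a quinone reductase that detoxifies reactive quinones. Its signal was 84.9 and 126 on the MK4 arrays and 510.3, 629 and 545 on the MK6 arrays. All MK6 arrays lay far above both MK4 arrays, which in turn lay above the MKP arrays, at 53.6 and 76.6, and the MK3 arrays, at 41.8 and 50.9. Nqo1 rose by 2.27 ± 0.25 (limma, adjusted p = 0.0103; n = 3 and 2), which is 4.84-fold on the log2(signal + 15.3) scale. The call ended, with adjusted p of 0.0834, 0.128 and 0.0981, when MK4 replicate 1, MK4 replicate 2 or MK6 replicate 3 was left out, and the difference itself stayed positive.

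The sequence before the Nqo1 start is given because Nqo1 is the only gene higher in MK6 past the adjusted threshold. RefSeq places these bases on GRCm38.p6, minus strand, at chr8:107403206-107403455. None of 11 promoter motifs searched on both strands was found in the window from 250 bases before to 50 bases after the start. That says only that those letters are not in this window.
Nqo1: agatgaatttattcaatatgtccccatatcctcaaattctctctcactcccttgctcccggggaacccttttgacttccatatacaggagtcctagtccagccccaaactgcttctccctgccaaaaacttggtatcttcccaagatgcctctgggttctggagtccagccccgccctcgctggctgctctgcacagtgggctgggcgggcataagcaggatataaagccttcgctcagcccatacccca

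Map11 encodes a microtubule-associated protein. Its signal was 168 and 155 on the MK4 arrays and 13.9, 19.2 and 16.8 on the MK6 arrays. The MKP arrays, at 268 and 167, and the MK3 arrays, at 174 and 136, were near or above MK4, so only the MK6 arrays stood low. Map11 fell by 2.47 ± 0.27 (limma, adjusted p = 0.0103). All MK6 signals were under the detection filter of 46.8, so the size rests on the pseudocount and ran from −3.06 to −1.71 over the pseudocounts tried. This call also ended without MK4 replicate 1, MK4 replicate 2 or MK6 replicate 3.

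Among the other genes that led the higher side, none passed the adjusted threshold, and all had adjusted p between 0.0828 and 0.124 (limma). Six4, a homeobox transcription factor, was at 39.1 and 40.6 on the MK4 arrays and at 160.0, 161 and 159 on the MK6 arrays, a difference of 1.67 ± 0.27. It was under the filter on both MK4 arrays and nearly level across the MK6 arrays. Adamts1, a secreted metalloprotease, was at 93.9 and 122 in MK4 and at 303, 306 and 366 in MK6, with a difference of 1.47 ± 0.23. Zmat3, a zinc-finger RNA-binding protein encoded by a p53 target gene, was at 101 and 112 in MK4 and at 302, 399.6 and 344 in MK6, a difference of 1.57 ± 0.26.

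Several of the leading genes encode enzymes of detoxification and transport. Ptgr1, a reductase of prostaglandins and leukotrienes, was at 365 and 470.3 in MK4 and 1274, 959 and 1103 in MK6, a difference of 1.38 ± 0.22. Slc6a8, the creatine transporter, was at 151 and 196 in MK4 and 1210.0, 457 and 862 in MK6, 2.09 ± 0.37, with the MK6 arrays themselves far apart. Mt1, a metal-binding metallothionein, differed by 1.45 ± 0.29, with 0.55 ± 0.44 on its other probe set. Ephx1, an epoxide hydrolase, differed by 1.34 ± 0.27 and the glutathione transferase Gstm2 by 1.55 ± 0.33. Gsta4, another glutathione transferase, was at 5.32 and 6.29 in MK4, far under the filter, and at 81.3, 53.2 and 122 in MK6. Trp53inp1, a stress protein encoded by a p53 target gene, differed by 1.65 ± 0.29, but its other probe set by only 0.21. Msx1, a homeobox factor, differed by 2.14 ± 0.42 and was under the filter in MK4, with 0.42 on its other probe set. The remaining leaders were Reln, a secreted matrix protein, at 1.52 ± 0.30, the deubiquitinase gene Mindy3 at 1.17 ± 0.21 and D16Ertd472e at 1.06 ± 0.21, whose other probe sets gave 0.07 to 0.35.

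**Figure D3:**
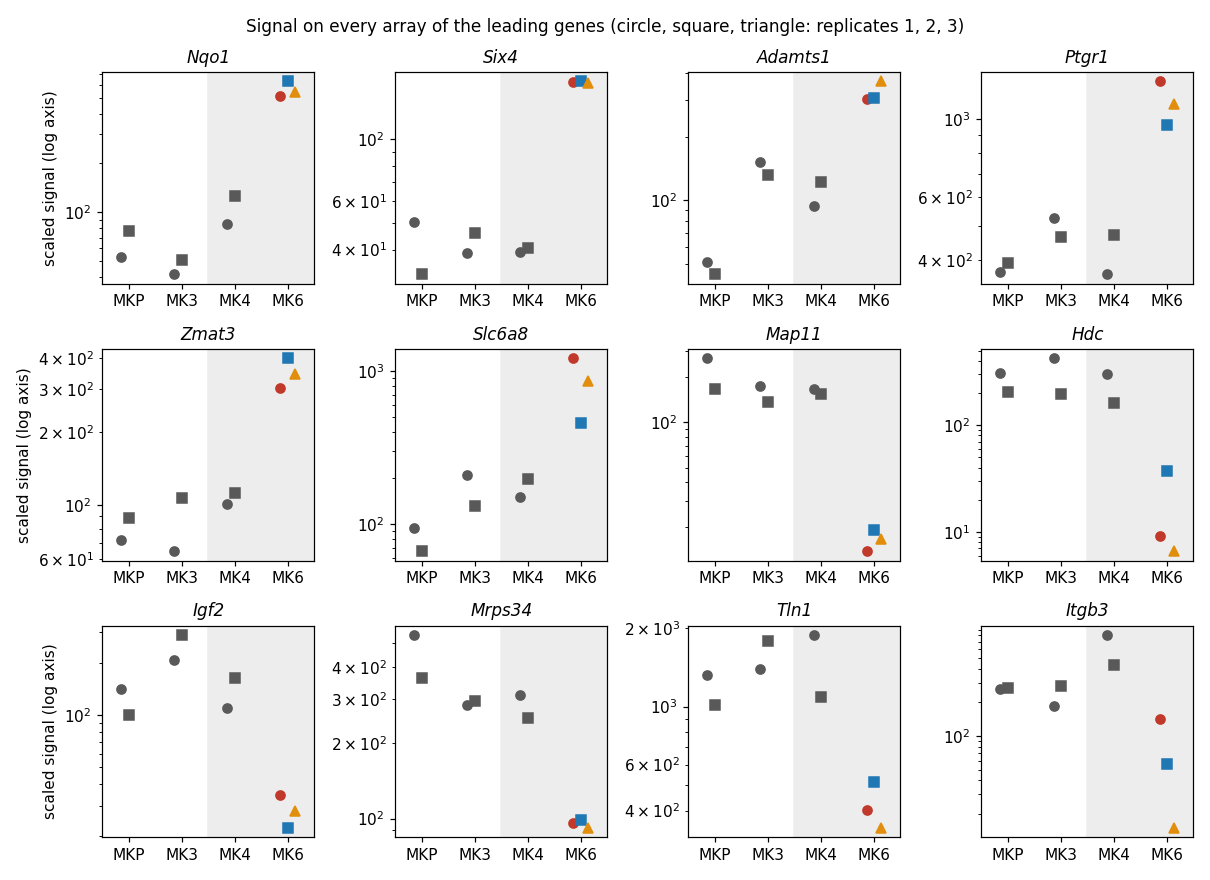
Scaled signal (log axis, arbitrary units) of 12 genes on each of the 9 arrays, in the order MKP, MK3, MK4, MK6; each point is 1 array and MK4 and MK6 are shaded. In the upper genes, such as Nqo1 and Six4, all MK6 points lie above the MK4 points, and in the lower ones, such as Map11 and Mrps34, all lie below. The genes were picked from those whose MK6 and MK4 arrays do not overlap, so this separation follows from the choice.

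The leading genes on the lower side, other than Map11, had adjusted p between 0.0828 and 0.11 (limma). Hdc, the enzyme that makes histamine, was at 302 and 163 in MK4 and 9.22, 37.0 and 6.63 in MK6, a difference of −2.97 ± 0.44. Its second probe set differed by −2.39 ± 0.31 and passed the threshold when every probe set was tested on its own (adjusted p = 0.0313). Igf2, a fetal growth factor, was at 109.9 and 165 in MK4 and 34.9, 22.5 and 28.1 in MK6, −1.79 ± 0.29. Mrps34, a protein of the mitochondrial ribosome, was at 312 and 252 in MK4 and at a nearly constant 96.3, 98.6 and 91.9 in MK6, −1.41 ± 0.23. Snd1, a multifunctional RNA-binding nuclease, differed by −1.49 ± 0.26 and Magt1, a magnesium transporter and part of an oligosaccharyltransferase complex, by −1.21 ± 0.21.

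Transcription factors and surface proteins of blood cells were also among the leaders on this side. Ikzf1, a zinc-finger factor of blood progenitors and lymphocytes, was at 107 and 106 in MK4 and 22.4, 12.1 and 14.2 in MK6, −1.96 ± 0.35. Stat2, the signal transducer of type I interferon receptors, was at 224 and 409 in MK4 and 104, 87.0 and 53.6 in MK6, −1.76 ± 0.32, with −1.24 on its other probe set. Tfec, a basic helix-loop-helix factor, differed by −1.57 ± 0.29, the monocyte chemokine receptor gene Ccr2 by −2.54 ± 0.48, the membrane protein gene Ms4a4c by −2.36 ± 0.42 and the fetal liver protein gene Afp by −2.25 ± 0.43. Slco3a1, an organic anion transporter, differed by −1.71 ± 0.30, and its other probe sets by −1.12 and 0.06.

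Among platelet receptors and adhesion molecules, 13 of 26 tested genes were lower on all MK6 arrays than on both MK4 arrays and 0 were higher. The median difference was −0.58, against 0.09 for all genes, and 8 of the 26 were lower and 1, Cd36, higher at unadjusted p below 0.05. Itgb3, the beta subunit of the fibrinogen receptor, was at 803 and 434 in MK4 and at 143, 56.5 and 15 in MK6, a difference of −3.11 ± 0.55 (limma, adjusted p = 0.0877). The stages did not overlap, although the MK6 arrays spanned a wide range. Its partner Itga2b differed by 0.16 ± 0.38.

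The other surface receptor genes with separate stages included Clec1b and Gp9. Clec1b, the podoplanin receptor CLEC-2, was at 711 and 691 in MK4 and 124, 371 and 103 in MK6, −1.95 ± 0.60. Gp9, a subunit of the von Willebrand factor receptor, was at 1115 and 988 in MK4 and 312, 691 and 228 in MK6, −1.48 ± 0.55. P2rx1, an ATP-gated channel, differed by −1.13 ± 0.38. Gp1bb at −0.91 ± 0.55 and Gp5 at −0.45 ± 0.41, the neighbours of Gp9 in its complex, overlapped between stages. Gp1ba, of the same complex, had no probe set with its symbol alone and was not tested. The list median by MK6 array was −0.51, −0.37 and −0.64, so it lay below 0 on all, and it was −0.19 with the beta-actin ratio added as a covariate.

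Granule genes had no common direction. Of 21 tested alpha-granule genes, 4 were higher and 3 lower on all MK6 arrays, with a median of −0.05. Ppbp, a platelet chemokine precursor, was at 3819 and 3695 in MK4 and 1099, 1641 and 807 in MK6, −1.71 ± 0.35. Pf4, the other abundant platelet chemokine, was at 6493 and 5450.0 in MK4 and 11340.0, 7269 and 9221 in MK6, 0.62 ± 0.29. These chemokine genes thus stood on opposite sides, each without overlap of the arrays and neither past the adjusted threshold (limma, adjusted p = 0.115 for Ppbp and 0.49 for Pf4).

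Timp3, a metalloprotease inhibitor stored in platelets, was at 1014 and 607 in MK4 and 54.2, 229.5 and 161 in MK6, −2.47 ± 0.65. Tgfb1, the growth factor, was at 2906 and 1874 in MK4 and 1085, 1372 and 640.1 in MK6, −1.23 ± 0.33. Sparc, a collagen-binding protein, was at 42.7 and 332 in MK4 and 437, 937 and 569 in MK6, 2.15 ± 0.69, with the MK4 arrays far apart and 0.67 on its other probe set. Of 22 dense-granule and secretion genes, 3 were higher and 1 lower on all MK6 arrays, with a median of −0.01. Among all genes 14.9% were higher and 9.84% lower in this way. Mlph, a linker of Rab27 to myosin, differed by 1.58 ± 0.36, although it was under the filter in MK4. Hps1, part of a complex that builds dense granules, differed by −0.76 ± 0.43, and its stages overlapped.

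Among 43 genes of the proplatelet cytoskeleton, 12 were lower and 2 higher on all MK6 arrays, with a median of −0.23. The median was −0.41, 0.00 and −0.23 on MK6 replicates 1, 2 and 3, so 1 array lay level with MK4. Tln1, which links integrins to actin, was at 1878 and 1086 in MK4 and 401, 512 and 344 in MK6, −1.75 ± 0.29 (limma, adjusted p = 0.0828), whereas its other probe set gave 0.28 ± 0.40. Pfn1, an actin-monomer binding protein, was at 2171 and 1997 in MK4 and 338, 1289 and 206 in MK6, −2.17 ± 0.57. Myh9, the non-muscle myosin heavy chain, differed by 0.60 ± 0.33 and overlapped.

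Of 25 megakaryocyte transcription factors tested, 8 were lower and 1 higher on all MK6 arrays, with a median of −0.13. Myb, a factor of proliferating progenitors, was at 489 and 656 in MK4 and 50.5, 424 and 196 in MK6, −1.67 ± 0.58. Nfe2, the leucine-zipper factor needed for platelet release, differed by −0.13 ± 0.42 and overlapped. Gata1, the master factor of the lineage, was at 736 and 662 in MK4 and 431, 642 and 349 in MK6, −0.59 ± 0.35. Fli1 at −0.67 ± 0.43, Gfi1b at −0.58 ± 0.37 and Runx1 at −0.48 ± 0.27 overlapped between stages.

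**Figure D4:**
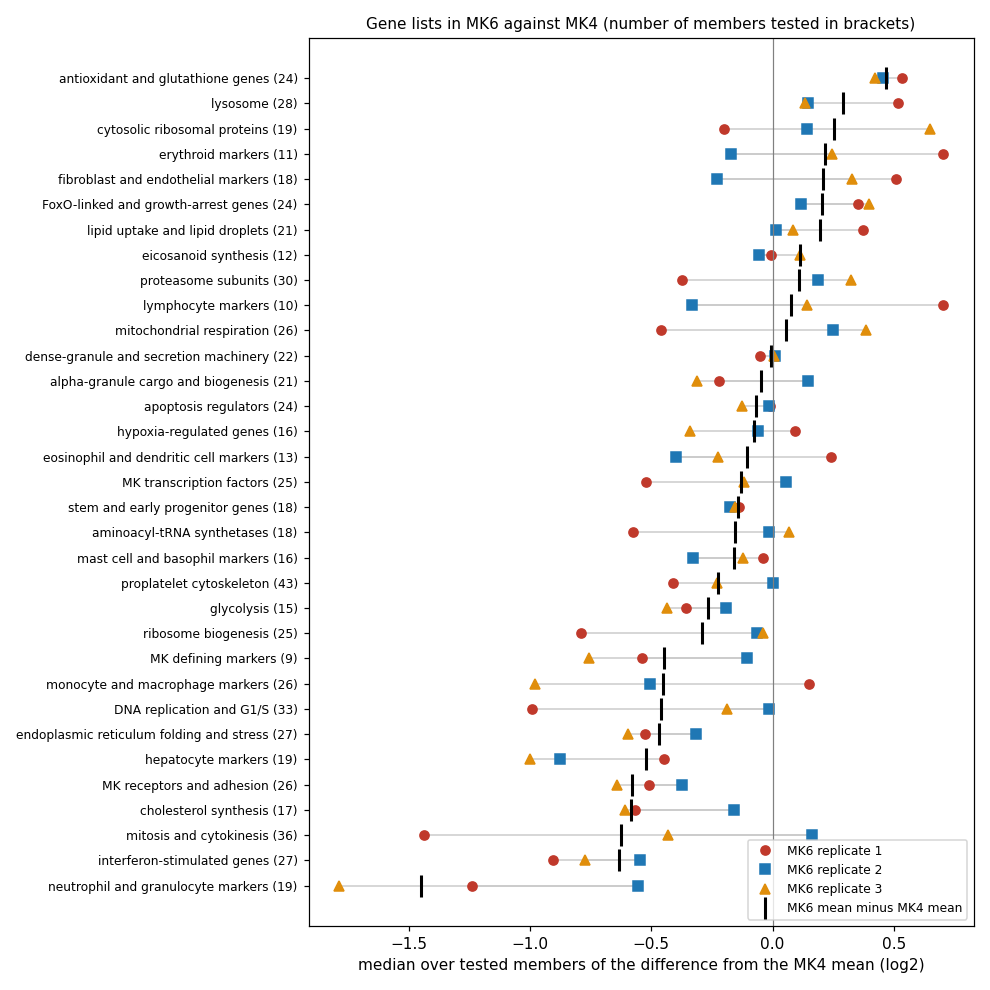
Median MK6 minus MK4 difference on the log2(signal + 15.3) scale for each gene list, for each MK6 array against the MK4 mean (small symbols) and for the MK6 mean (large symbol). The antioxidant median lies above 0 and the interferon and endoplasmic reticulum medians below 0 on all 3 MK6 arrays. Other lists also keep their side, such as lysosome above 0 and platelet receptors, neutrophil markers and glycolysis below 0. The mitosis median runs from −1.44 on replicate 1 to 0.16 on replicate 2.

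Antioxidant and glutathione genes had, of the 33 lists described, the largest share of members with all MK6 arrays higher, Nqo1 among them. Of 24 tested, 12 were higher and 1 lower on all MK6 arrays, and 10 and 1 at unadjusted p below 0.05. The median was 0.47, with 0.54, 0.46 and 0.42 on MK6 replicates 1, 2 and 3. It was 0.23 with replicate 2 as the only MK6 array, a run that set the pseudocount, the filter and the probe set per gene anew. Srxn1, which repairs oxidised peroxiredoxins, was at 772 and 851 in MK4 and 2372, 2235 and 1799 in MK6, 1.37 ± 0.35. Cat, the hydrogen peroxide-degrading catalase, was at 425 and 463 in MK4 and 1026, 754 and 1116 in MK6, 1.08 ± 0.26. Blvrb, which reduces biliverdin and flavins, was at 486 and 585 in MK4 and 910.4, 1192 and 1207 in MK6, 1.02 ± 0.27. All of these had separate stages, with adjusted p from 0.179 to 0.197 (limma).

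Genes of glutathione supply and export were higher by less. Gclm and Gclc, the subunits of the enzyme that limits glutathione synthesis, differed by 0.78 ± 0.29 and 0.56 ± 0.25. Slc7a11, which imports cystine, differed by 0.96 ± 0.35 and Abcc1, which exports glutathione conjugates, by 0.69 ± 0.22. Each of these was higher on all MK6 arrays. Other members stood elsewhere: Gsr, which regenerates glutathione, was lower on all MK6 arrays at −0.72 ± 0.31, and Hmox1, which breaks down heme, and Txnrd1, a thioredoxin reductase, overlapped at 0.12 ± 0.35 and −0.35 ± 0.30. The motif TGACTCAGC, a letter form bound by small Maf and NF-E2 family factors, was in 1 of 19 antioxidant promoters available, that of Me1, and in 0.616% of all 7626 available promoters of tested genes. Among promoters of genes higher in MK6 at an unadjusted p below 0.05 it was in 7 of 373, or 1.88%, and among those lower in MK6 in 0.703% of 427; these are the higher and lower sides of the motif shares given below. A longer form, these letters followed by A, was also searched, and each match of it holds this motif.

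FoxO-linked and growth-arrest genes gave 8 higher and 2 lower of 24 on all MK6 arrays, with the same counts at unadjusted p below 0.05. Their median was 0.21, and 0.39 without MK6 replicate 2. Fbxo32, a ubiquitin ligase subunit induced in atrophy, was at 54.4 and 271 in MK4 and 792, 355 and 676 in MK6, 2.07 ± 0.52. The forkhead factor genes Foxo3 and Foxo1 differed by 0.89 ± 0.22 and 0.69 ± 0.26. Cdkn1a, the cell-cycle inhibitor p21, was at 764 and 1006 in MK4 and 1553, 1349 and 1751 in MK6, 0.80 ± 0.23. On the other side were Klf2, a zinc-finger factor of quiescence, at −1.27 ± 0.41 and Cdkn2d, the inhibitor p19, at −0.69 ± 0.30.

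Interferon-stimulated genes lay lower in MK6, but the MK4 arrays differed from each other. Of 27 tested, 8 were lower and 0 higher on all MK6 arrays, 26 differences were negative, and the median was −0.63. All 27 had a higher signal on MK4 replicate 2 than on MK4 replicate 1. The summed signal of the list was 8480 and 16700 on the MK4 arrays and 6070, 8980 and 7070 on the MK6 arrays, so MK4 replicate 1 fell within the MK6 range. The median was −1.07 without MK4 replicate 1 and −0.22 without MK4 replicate 2.

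Beside Stat2, the members with separate stages included Ifit1, an RNA-binding antiviral protein, at 197 and 457 in MK4 and 136, 162 and 90.6 in MK6, −1.16 ± 0.34. Ifit2, of the same family, was at 144 and 738 in MK4 and 15.1, 130.1 and 41.9 in MK6, −2.45 ± 0.67. Bst2, which tethers viruses to the cell surface, was at 298 and 618 in MK4 and 203, 188 and 91.8 in MK6, −1.41 ± 0.36. Ifit3 was at 87.3 and 482 in MK4 and 39.7, 93.3 and 41.8 in MK6, and its stages overlapped.

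**Figure D5:**
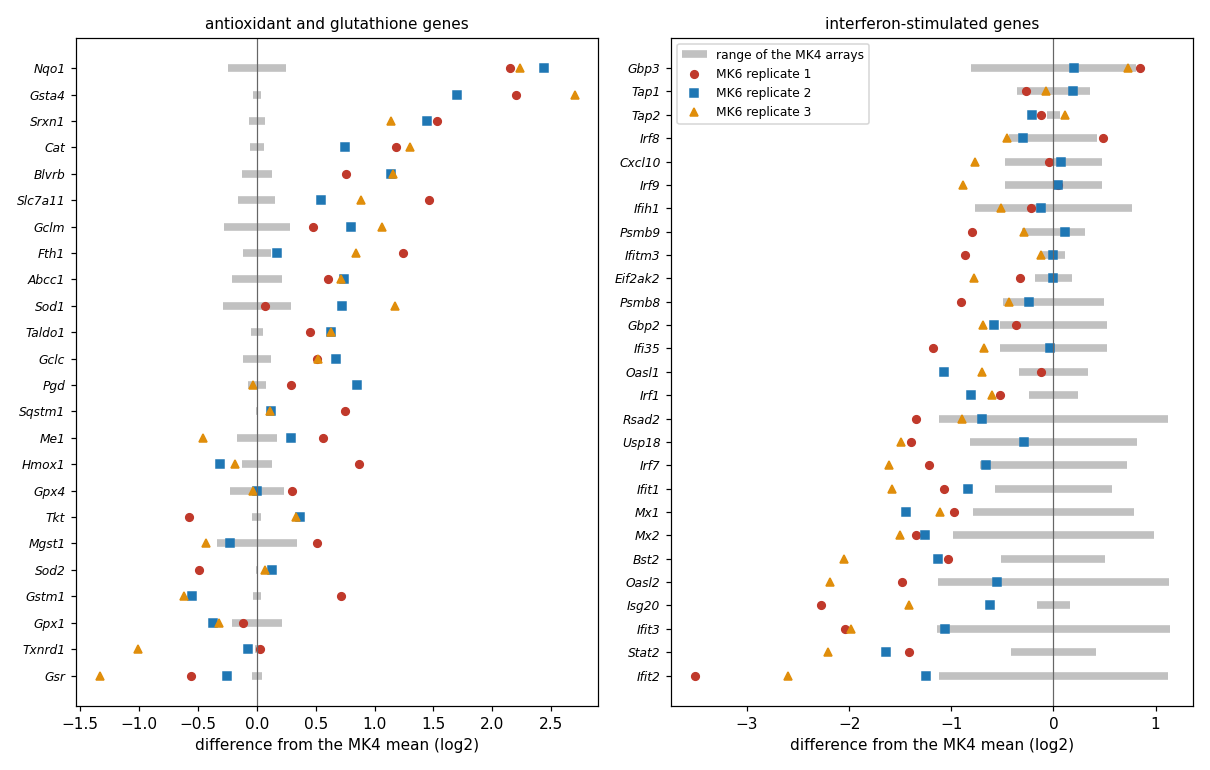
MK6 minus MK4 difference on the log2(signal + 15.3) scale of each tested antioxidant gene (one panel) and interferon-stimulated gene (other panel), with a point for each of the 3 MK6 arrays and a bar for the range of the 2 MK4 arrays about their mean. Of the antioxidant genes 12 of 24 have all points above the bar, and of the interferon-stimulated genes 8 of 27 have all points below it.

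The promoters of the interferon-stimulated genes were searched for a motif of the interferon response. Its share in the list goes with the kind of genes listed and says nothing about their values in MK4 or MK6. The same holds for the motifs of the endoplasmic reticulum and mitosis lists below. The letters TTTC, 2 bases of any kind and TTTC again, the core of the interferon-stimulated response element, were in 11 of 23 available promoters of the list, 47.8%, and in 297, or 3.89%, of all 7626. They were in 25 of 427 promoters of genes on the lower side, or 5.85%, that of Stat2 among them. On the higher side they were in 11 of 373, or 2.95%. This motif and the endoplasmic reticulum motif below were searched after results had been seen. The 250 bases before the start of Stat2, Ifit1 and Ifit3 are shown, with matches in capitals (RefSeq, GRCm38.p6, all on the plus strand), at chr10:128270248-128270497, chr19:34640639-34640888 and chr19:34583279-34583528.
Stat2: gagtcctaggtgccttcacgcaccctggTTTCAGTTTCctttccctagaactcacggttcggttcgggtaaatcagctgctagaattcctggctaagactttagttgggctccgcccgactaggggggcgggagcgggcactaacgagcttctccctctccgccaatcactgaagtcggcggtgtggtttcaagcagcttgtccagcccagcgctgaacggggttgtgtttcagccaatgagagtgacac
Ifit1: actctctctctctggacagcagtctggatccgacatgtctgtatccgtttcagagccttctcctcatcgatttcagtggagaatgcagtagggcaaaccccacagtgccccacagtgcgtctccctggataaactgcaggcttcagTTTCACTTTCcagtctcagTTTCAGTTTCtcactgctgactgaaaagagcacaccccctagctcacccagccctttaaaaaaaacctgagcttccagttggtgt
Ifit3: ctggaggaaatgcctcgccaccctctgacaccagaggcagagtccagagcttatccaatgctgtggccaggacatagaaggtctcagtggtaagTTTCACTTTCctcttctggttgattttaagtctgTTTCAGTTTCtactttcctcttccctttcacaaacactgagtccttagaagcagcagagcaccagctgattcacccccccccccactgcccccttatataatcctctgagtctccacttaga
The match in Stat2 began at −222 from the start, those in Ifit1 at −104 and −85, and those in Ifit3 at −156 and −122.

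Genes of protein folding in the endoplasmic reticulum had many more members lower than higher in MK6. Of 27 tested, 13 were lower and 1 higher on all MK6 arrays, and 11 and 0 at unadjusted p below 0.05. The median was −0.47, and −0.23 without MK4 replicate 1. Herpud1, which acts in the degradation of misfolded proteins, was at 618 and 689 in MK4 and 250.4, 255 and 131 in MK6, −1.61 ± 0.33. Its other probe set gave −0.68. Hsp90b1, the chaperone GRP94, was at 1959 and 1255 in MK4 and 587, 743 and 695 in MK6, −1.21 ± 0.25, with −0.79 on its other probe set. Syvn1, the ubiquitin ligase of the same degradation pathway, was at 528 and 612 in MK4 and 309.8, 295 and 263 in MK6, −0.94 ± 0.21. In each the MK6 arrays lay under both MK4 arrays, close together for Hsp90b1 and Syvn1 and with replicate 3 lowest for Herpud1, with adjusted p from 0.117 to 0.162 (limma).

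Manf, a secreted stress protein, differed by −1.18 ± 0.31 and Pdia6, a disulfide isomerase, was at 993 and 846 in MK4 and 525, 625 and 634 in MK6, −0.62 ± 0.22. Hspa5, the abundant chaperone BiP, stood apart from them at 4366 and 4079 in MK4 and 4429, 3340.0 and 4109 in MK6, −0.10 ± 0.25. The letters CCAAT, 9 bases of any kind and CCACG, the endoplasmic reticulum stress response element, were in 9 of 25 available promoters of the list, among them Hspa5, Hsp90b1, Syvn1 and Pdia6, and in 13 of all 7626, or 0.17%. So Hspa5 held the motif and overlapped between stages. Of promoters on the lower side 5 of 427, or 1.17%, held it, and of those on the higher side 1 of 373, or 0.268%. Hsp90b1 and Syvn1 of the list are among those on the lower side, so these shares are not separate from the list counts. The bases before the start of Hsp90b1 (minus strand), Syvn1 and Pdia6 (plus strand) are shown with the matches in capitals (RefSeq, GRCm38.p6), at chr10:86705445-86705694, chr19:6046326-6046575 and chr12:17266339-17266588.
Hsp90b1: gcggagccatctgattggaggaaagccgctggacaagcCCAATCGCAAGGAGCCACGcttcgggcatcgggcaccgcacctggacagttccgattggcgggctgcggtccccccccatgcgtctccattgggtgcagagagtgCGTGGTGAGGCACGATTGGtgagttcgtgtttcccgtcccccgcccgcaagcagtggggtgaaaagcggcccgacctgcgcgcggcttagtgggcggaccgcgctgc
Syvn1: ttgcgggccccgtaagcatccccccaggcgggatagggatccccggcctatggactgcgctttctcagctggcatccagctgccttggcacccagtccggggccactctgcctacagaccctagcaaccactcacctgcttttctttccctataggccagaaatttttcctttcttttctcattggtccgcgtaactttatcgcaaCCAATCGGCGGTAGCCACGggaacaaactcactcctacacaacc
Pdia6: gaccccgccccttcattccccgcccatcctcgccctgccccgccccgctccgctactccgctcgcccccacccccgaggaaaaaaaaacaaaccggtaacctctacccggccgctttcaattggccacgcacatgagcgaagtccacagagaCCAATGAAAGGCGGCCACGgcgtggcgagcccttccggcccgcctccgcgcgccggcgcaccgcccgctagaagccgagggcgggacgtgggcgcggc
Hsp90b1 held the element at −212 and, on the other strand, at −107, Syvn1 at −44 and Pdia6 at −98.

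Division genes had mostly negative differences, but the MK6 arrays lay far apart. Of 36 mitosis and cytokinesis genes, 33 had a negative difference of the means, and 4 were lower and 0 higher on all MK6 arrays. The median was −1.44 on MK6 replicate 1, 0.16 on replicate 2 and −0.43 on replicate 3, and 30 of the 36 had their lowest MK6 signal on replicate 1. The summed signal was 11600 and 9300 on the MK4 arrays and 3030, 11800 and 7880 on the MK6 arrays. The median over the MK6 mean, −0.63, became −0.21 without replicate 1 and −1.12 without replicate 2.

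Birc5, the survivin of the chromosomal passenger complex, showed the pattern most plainly, at 388 and 370.1 in MK4 and 10.4, 384 and 247 in MK6. Ncapg, a condensin subunit, was at 173 and 151 in MK4 and 14.7, 103 and 70.4 in MK6, −1.40 ± 0.46. Kif11, the motor that separates the spindle poles, was at 184 and 231 in MK4 and 66.3, 143 and 79.4 in MK6, −1.05 ± 0.29. Ncapg and Kif11 were thus lower on all MK6 arrays, least so on replicate 2, and Birc5 was level with MK4 there. Ube2c, which charges the anaphase-promoting complex, differed by −1.42 ± 0.53 and overlapped.

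The letters TTTGAA, the cell cycle homology region, were in 23 of 30 available promoters of the mitosis list, 76.7%, against 14.3% of all promoters, 14.1% on the lower side and 12.3% on the higher side. Those of Ncapg and Kif11 are shown with this motif in capitals; in Kif11 it lies on the other strand and so reads as its reverse complement (RefSeq, GRCm38.p6, plus strand, chr5:45669675-45669924 and chr19:37376132-37376381).
Ncapg: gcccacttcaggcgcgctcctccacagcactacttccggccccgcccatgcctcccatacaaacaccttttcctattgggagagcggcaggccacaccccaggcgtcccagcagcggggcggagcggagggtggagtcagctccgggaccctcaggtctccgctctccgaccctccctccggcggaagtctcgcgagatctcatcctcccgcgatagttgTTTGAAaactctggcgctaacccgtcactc
Kif11: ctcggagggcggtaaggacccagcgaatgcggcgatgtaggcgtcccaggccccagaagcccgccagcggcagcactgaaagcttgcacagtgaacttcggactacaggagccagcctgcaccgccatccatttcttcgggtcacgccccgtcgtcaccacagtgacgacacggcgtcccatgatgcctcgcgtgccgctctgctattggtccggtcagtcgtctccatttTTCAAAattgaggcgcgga
The match began at −30 in Ncapg and −19 in Kif11, both close to the start.

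DNA replication genes followed the same order of arrays. Of 33 tested, 32 had a negative difference of the means, and 9 were lower and 0 higher on all MK6 arrays. The array medians were −0.99, −0.02 and −0.19. Tk1, a thymidine kinase of S phase, was at 244 and 109 in MK4 and 5.60, 114 and 5.22 in MK6. Mcm3, of the replicative helicase, was at 559 and 309.7 in MK4 and 98.7, 271 and 169.8 in MK6, −1.25 ± 0.36; its other probe sets gave −1.36, −1.30, −0.73 and 0.24. Replicate 2 was again nearest to MK4. Ribosome biogenesis gave 6 lower and 2 higher of 25, with a median of −0.29 that was −0.08 without MK4 replicate 1 and −0.06 without MK6 replicate 1. Rrp9 and Ddx21, of early ribosomal RNA processing, differed by −0.98 ± 0.42 and −0.84 ± 0.35, with −0.30 on the other probe set of Ddx21. Cytosolic ribosomal protein genes had a median of 0.25 over 19, which turned to −0.14 with the beta-actin ratio added as a covariate and −0.05 with quantile normalization. Rps19 and Rps3, of the small subunit, differed by 0.65 ± 0.27 and 0.49 ± 0.33.

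In glycolysis 5 of 15 were lower and 1 higher on all MK6 arrays, with a median of −0.27 that was −0.10 without MK4 replicate 2. Pfkl, the liver phosphofructokinase, was at 788 and 809 in MK4 and 245, 445 and 197 in MK6, −1.47 ± 0.31. Slc16a3, which exports lactate, was at 953 and 594 in MK4 and 368, 374 and 162 in MK6, −1.37 ± 0.35. The 26 mitochondrial respiration genes had a median of 0.05, and 1 of them, Sdhb of succinate dehydrogenase, was higher and 0 lower on all MK6 arrays. Sdhb differed by 0.36 ± 0.23 and Idh3a, an isocitrate dehydrogenase subunit, by −0.40 ± 0.33, with 0.05 and −0.38 on its other probe sets.

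Cholesterol synthesis had a median of −0.58 over 17 genes, with 3 lower on all MK6 arrays, but the MK4 arrays differed, with summed signals of 9190 and 4010. The median was −0.21 without MK4 replicate 1 and −0.92 without MK4 replicate 2. Fdps, which makes farnesyl diphosphate, was at 1867 and 662 in MK4 and 156, 505 and 128 in MK6, −2.27 ± 0.54. Msmo1, a sterol oxidase, was at 791 and 339 in MK4 and 64.8, 344 and 92.0 in MK6 and overlapped. For Msmo1, MK6 replicate 2 was level with MK4 replicate 2.

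Lysosome genes leaned to the higher side. Of 28 tested, 10 were higher and 0 lower on all MK6 arrays, and the median was 0.29, which was 0.08 without MK4 replicate 1 and 0.57 without MK4 replicate 2. Ctsl, a cysteine protease, was at 2298 and 5426 in MK4 and 12870.0, 5916 and 8788 in MK6, 1.30 ± 0.40. Ctsk, a collagen-degrading protease of the same family, was at 57.5 and 171 in MK4 and 449, 191 and 284 in MK6, 1.39 ± 0.48. MK6 replicate 2 lay just above the second MK4 array for both. Among lipid uptake and droplet genes 3 of 21 were higher and 1 lower, with a median of 0.20 that was −0.11 without MK4 replicate 1. Fabp4, a fatty acid carrier, differed by −1.51 ± 0.48, with −1.54 and −0.34 on its other probe sets. Among hypoxia-regulated genes 1 of 16 was higher and 3 lower, against 14.9% higher and 9.84% lower of all genes. Hilpda, a droplet protein, differed by 1.57 ± 0.50 and overlapped, and Egln1, an oxygen-sensing hydroxylase, by −1.30 ± 0.48, with the opposite sign on another probe set.

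The remaining programs were mixed, and their counts stand beside 14.9% higher and 9.84% lower on all MK6 arrays among all genes. Apoptosis regulators gave 4 higher and 2 lower of 24, with Casp8, an initiator caspase, at −0.86 ± 0.27 and Casp12 at 0.77 ± 0.39. The other probe set of Casp12 gave 0.28. Aminoacyl-tRNA synthetases gave 6 lower of 18, led by Vars, which loads valine, at −1.45 ± 0.62 and only 22.5 on MK6 replicate 1 against 228 and 195 on the others. Iars, which loads isoleucine, differed by −0.90 ± 0.48 and overlapped. Proteasome subunits had a median of 0.11 over 30, with the ATPase subunit gene Psmc5 at −0.72 ± 0.34 and the immunoproteasome gene Psmb10 at −0.68 ± 0.24. Stem and early progenitor genes had a median of −0.14 over 18, with Angpt1, a ligand of the Tek receptor, at −1.26 ± 0.54. Eicosanoid synthesis had a median of 0.11 over 12, with Ptgs2, the inducible cyclooxygenase, at −0.78 ± 0.48. Alox12, the platelet lipoxygenase, differed by −0.98 ± 0.62 and overlapped, with 0.12 on its other probe set.

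Markers of other cells differed between the arrays as well. Neutrophil and granulocyte markers gave 9 lower and 0 higher of 19 on all MK6 arrays and a median of −1.45, which was −0.26 with the beta-actin ratio added as a covariate and −0.93 without MK6 replicate 3. Elane, neutrophil elastase, was at 1589 and 2102 in MK4 and 31.8, 621 and 36.6 in MK6, −3.99 ± 0.86. Ctsg, the granule protease cathepsin G, was at 1619 and 1776 in MK4 and 55.4, 727 and 57.5 in MK6, −3.45 ± 0.79. Ltf, a later granule protein, was at 527 and 349.8 in MK4 and 695, 1408 and 306 in MK6 and overlapped. The summed signal of the list was 31800 and 30400 in MK4 and 17500, 33500 and 8850 in MK6, so replicate 2 lay slightly above the MK4 arrays. No tested marker of this or the following lists was at 0, but a signal above 0 does not show that a cell type was present. Members that did not pass the filter were not tested, such as Cd3e and Pax5 among lymphocyte markers and Alas2 among erythroid ones.

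Monocyte and macrophage markers split in direction: 10 of 26 were lower and 2 higher on all MK6 arrays. C1qa, of the complement protein C1q, was at 335 and 963 in MK4 and 17.9, 157 and 6.06 in MK6, −3.56 ± 0.72. C1qb, of the same protein, differed by −2.81 ± 0.61. On the other side, Mmp12, macrophage elastase, was at 53.0 and 362 in MK4 and 1419, 447 and 702 in MK6, 2.28 ± 0.62, and Gpnmb, a lysosomal glycoprotein, was at 2402 and 3624 in MK4 and 11270.0, 5457 and 7419 in MK6, 1.38 ± 0.41. The summed signal was 31000 and 43200 in MK4 and 69600, 32000 and 34400 in MK6, highest on replicate 1, the array on which Ctsl, Ctsk and Slc6a8 were also highest. The part of these cells in the lysosome, interferon and antioxidant values was not tested.

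The counts of the lists that follow stand beside 14.9% higher and 9.84% lower on all MK6 arrays among all genes. Mast cell and basophil markers gave 3 higher and 4 lower of 16, with Hdc at the values given for it and the chemokine Ccl3 at −1.63 ± 0.44. Eosinophil and dendritic cell markers gave 0 higher and 2 lower of 13, with Prg2, the eosinophil major basic protein, at −1.05 ± 0.33 and H2-Aa, an MHC class II chain, at −0.87 ± 0.44. Lymphocyte markers gave 1 higher and 2 lower of 10, and 7 of the 10 differences were positive. Klrd1, a receptor of natural killer cells, differed by 1.12 ± 0.51 and overlapped, and Nkg7, a cytotoxic granule protein, differed by −1.06 ± 0.33. Erythroid markers gave 2 higher and 1 lower of 11, with the embryonic globin gene Hbb-bh1 at 9.22 and 1.91 in MK4 and 54.8, 73.7 and 115 in MK6, 2.18 ± 0.50, under the filter in MK4. Hba-a1, adult alpha globin, differed by 0.68 ± 0.40. Fibroblast and endothelial markers gave 1 higher and 0 lower of 18. Egfl7, a secreted endothelial protein, differed by 0.54 ± 0.34, with −0.13 to 0.36 on its other probe sets, and Lepr, the leptin receptor, by 0.47 ± 0.39.

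Hepatocyte markers, which fetal liver cultures could carry, gave 7 lower and 2 higher of 19 and a median of −0.52, which was −1.38 without MK4 replicate 1 and −0.12 without MK4 replicate 2. Alb, serum albumin, was at 129 and 325 in MK4 and 127, 53.5 and 74.2 in MK6, and Fgb, a fibrinogen chain, at 5.54 and 139.8 in MK4 and 2.60, 1.21 and 2.07 in MK6. The summed signal was 2540 and 4580 in MK4 and 1540, 2640 and 1430 in MK6. As with the interferon genes, MK4 replicate 2 had the higher level, here for 15 of the 19.

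The last step was finally set against the step before it, from MK3 to MK4, in the same fit. The MK4 arrays enter both steps with opposite sign, so the steps are not independent. No gene differed between the steps at an adjusted p below 0.05 (0% of 9392; smallest adjusted p 1, limma), and 273 did at an unadjusted p below 0.05 (2.91%). Nqo1 differed by 0.95 ± 0.28 at the earlier step and by 2.27 ± 0.25 at the last, a step difference of 1.32 ± 0.47. Map11 differed by 0.06 ± 0.30 and −2.47 ± 0.27, a step difference of −2.53 ± 0.50. For Itgb3 the values were 1.30 ± 0.60 and −3.11 ± 0.55, so it was higher in MK4 than in the stages on either side. Msx1 had the opposite order, −1.91 ± 0.46 and then 2.14 ± 0.42, with its low point in MK4. Herpud1, on the probe set used, was higher in MK4 than in either neighbour, at 0.96 ± 0.36 and then −1.61 ± 0.33. Afp was lower at both steps, at −2.12 ± 0.47 and −2.25 ± 0.43, and Srxn1 was higher at both, at 1.12 ± 0.38 and 1.37 ± 0.35.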

How the data were processed

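The members of the gene lists and the comparison were chosen with earlier results of these data known. The authors deposited linear probe set intensities of 9 single-colour MOE430A arrays, computed in MAS5 per the submitters' processing notes; its version and settings are not stated there. RNA was extracted with Trizol and copied from an oligo-dT primer, per the labels' protocols, so the probes read the 3' part of transcripts. MK6 replicates 1, 2 and 3 are the arrays titled without a number, with "replicate1" and with "replicate2".

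Of 22690 probe sets, 64 were controls, 20380 had 1 gene symbol in the platform annotation (20351 found in the RefSeq gene table), 691 several and 1555 none here; only those with 1 symbol were used. Each array was scaled to a common trimmed mean of 161 (2% off each end), which removes any change in total RNA per cell. Values were taken as log2(signal + 15.3), the 20th percentile of signal, so folds of dim genes are understated. Genes were tested where 2 or more arrays had a signal above 46.8 (40th percentile), with the probe set of highest mean per gene: 9392 of 12393. All 9 arrays were fitted with limma 3.58.1 in R 4.3.3 (a mean per stage, eBayes with trend, 5 residual degrees of freedom), with Benjamini-Hochberg adjustment over all genes and a threshold of 0.05. The scripts were tested on simulated data. The number of arrays limits the precision.

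Genes were named by rule: called genes, then those of lowest p with separate stages and signals above the filter in the higher stage, up to 15 a side; the 2 members of each of 33 lists with the largest difference; and Itga2b, Pf4, Nfe2, Gata1 and 1 further gene not analysed here. Other list members were named after their values were seen. Promoter sequences are RefSeq's on GRCm38.p6 and were available for 7626 of the 9392 genes. Alternatives were other pseudocounts, filters, scalings, probe set rules and variance models, the 5 arrays alone, the beta-actin ratio as a covariate, and arrays left out.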

Additional observations from a re-analysis of the deposited data

How the results depend on the processing

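Against 1 gene higher and 1 lower, the common median gave 0 higher, the mean of probe sets 2 lower and each probe set on its own 3 lower. Array weights gave 171 higher and 349 lower, and weighted MK6 replicates 1, 2 and 3 by 0.274, 0.481 and 2.34. The 5 arrays alone gave 2 higher and 0 lower and allow no step difference. The beta-actin covariate gave 0 and 0. Without MK6 replicates 2 and 3 together there were 62 higher, 290 lower and 26 step differences, and without replicates 1 and 3 together, chosen after seeing the data, 0 and 0; both assume that the lone MK6 array varies like the other groups. With 1 array left out in turn, the higher genes ran from 0 to 25 and the step differences from 0 to 3, both highest without MK6 replicate 2. The lower genes ran from 0 to 95, with 95 without MK6 replicate 2, 4 without MK6 replicate 1 and 2 without MK3 replicate 2. Nqo1 also lost its call with the common median (2.21, adjusted p = 0.074, limma) and both genes with the covariate (adjusted p = 0.528), under which their differences were 2.30 for Nqo1 and −2.44 for Map11, against 2.27 and −2.47. Map11 lost its call with the 5 arrays alone (0.18). Both kept their sign under every alternative run. Scaling moved the median of all genes by under 0.1. No paired analysis was possible because the replicate numbers follow accession order and the labels pair no arrays. Cells of a stage cannot be separated from other cells in the gate, and signals near the filter carry little information.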
